A study of Mus musculus with 12 samples.

Results

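The regions described here are places in the genome of the mouse digit-forming limb bud where HOXA13 and HOXD13 both bind and where H3K27ac was called with and without the factors. They are called kept sites. Overlapping HOXA13 and HOXD13 peaks of wild-type tissue were merged into 33743 sites, of which 33296 lay on the 19 autosomes and 19353 of those carried a peak of each factor. A shared site was taken as kept when it overlapped an H3K27ac peak of the double mutant and of wild type by at least 1 bp, and no wild-type H3K27me3 peak. This held for 5751 sites, 29.7% of the autosomal shared sites (Wilson 95% interval 29.1 to 30.4%) and 17.3% of all autosomal merged sites (16.9 to 17.7%). The sites were thus chosen by the measured peaks of H3K27ac in both genotypes, wild-type H3K27me3 and the factors. The values of H3K27ac at them, and shares kept or lost, are a description with no test.

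Both proteins belong to the HOX family of homeodomain transcription factors and act in the part of the limb bud that makes the digits, which fail to form properly in mice without them. H3K27ac is an acetylation of histone H3 found at active promoters and enhancers. H3K27me3 is the methylation that Polycomb repressive complex 2 lays down on the same lysine, which cannot carry both modifications at once. A site that is acetylated with and without the factors is thus a place where HOX13 binds but where a call of H3K27ac was also made in their absence.

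The material is described as the distal part of E11.5 forelimb buds in the design text, while the extraction protocol speaks of ZAP cells, a term the labels do not explain. Double-mutant embryos were Hoxa13-/-;Hoxd13-/- on a mixed C57BL/6 and CD1 background, with a neomycin cassette in the coding region of Hoxa13 and a lacZ reporter in the first exon of Hoxd13. Wild-type embryos were of the same mixed background. Chromatin immunoprecipitation and sequencing (ChIP-seq) mapped H3K27ac and H3K27me3 in both genotypes and the factors in wild type, and H3K27me3 also in CD1 forelimb buds of E10.5, not labelled as distal, with another antibody. With a single library for each profile there are no replicates, and no p-value is given. Both genes are inactivated in every cell of the embryo, not in the limb alone, and whether the limb buds of both genotypes hold the same mixture of cells was not tested. Nor was the sex of the embryos compared between genotypes. In bulk tissue, fewer cells carrying a mark and less of the mark per cell cannot be told apart. The labelled genotype and tissue were not checked against genes, because gene models of the peaks' build, mm9, were not used here.

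The peak lists held 38115 H3K27ac peaks in the double mutant and 31933 in wild type, 31044 HOXA13 peaks and 22655 HOXD13 peaks. Scores are those the authors deposited, read as -10 times the decimal logarithm of a peak's p-value, and are compared within 1 list. Their lowest value is 50 and many histone peaks are tied at 3100. The lists give no read counts, so depth is unknown, and a score or a call that differs between genotypes can also reflect depth. All intervals are Wilson 95% intervals for shares, Newcombe intervals for differences of shares or order-statistic intervals for medians. They count sites as if independent and say nothing of the spread between embryos.

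Kept sites were the second most frequent kind of shared site. The most frequent, with 8944 sites or 46.2% (45.5 to 46.9%), carried neither mark in wild type and no H3K27ac in the double mutant. Another 1797 sites had wild-type H3K27ac without H3K27me3 but no double-mutant H3K27ac, and are called lost sites here. Wild-type H3K27ac and H3K27me3 were both called at 915 sites and H3K27me3 alone at 1331 sites. At 615 sites no mark was called in wild type but H3K27ac was called in the double mutant. Of the 7548 shared sites with wild-type H3K27ac and no H3K27me3, kept sites made up 76.2%. Among all 26785 autosomal wild-type H3K27ac peaks without H3K27me3, bound or not, 83.5% overlapped a double-mutant peak. Both shares come from the contrast that chose the sites. When peaks scoring below 100 were left out of each list, the same rule gave 3382 kept sites.

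Kept sites mostly held a single peak of each factor and had a larger median width than shared sites as a whole. Their median width was 1422 bp, with quartiles of 1180 and 1813 bp and a range from 695 to 11011 bp. The median was 1281 bp over all autosomal shared sites, 1365 bp for lost sites and 1577 bp for sites with both marks in wild type. Exactly 1 HOXA13 peak and 1 HOXD13 peak made up 5589 of them, or 97.2% (96.7 to 97.6%), and 162 held more than 1 peak of either factor. HOXA13 scores ran from 50.1 to 3211 with a median of 233, and HOXD13 scores from 50.0 to 3233 with a median of 194. The scores of both factors went together across the 5751 kept sites (Spearman rho 0.793; sites of the same libraries are not replicates).

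Acetylation at the kept sites covered the whole range of the lists, from peaks at the calling limit to peaks at the ceiling of the score. In the double mutant the H3K27ac score at kept sites had a median of 590 with quartiles of 195 and 2060. In wild type the median was 765 with quartiles of 275 and 2835. Scores of 3100 or more were found at 1035 kept sites in the double mutant and at 1355 in wild type, and at 979 in both. The whole lists differed in the same direction. A score of exactly 3100 was held by 2754 of 38115 double-mutant peaks and by 4439 of 31933 wild-type peaks. The level of the scores at kept sites is therefore not compared between genotypes. At the lower end, the score was below 100 at 640 kept sites in the double mutant and at 401 in wild type, and at 161 in both. Across kept sites the scores of both genotypes were closely related (Spearman rho 0.842). Kept acetylation thus included both very high and barely called peaks, and sites high in 1 list tended to be high in the other.

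**Figure D1:**
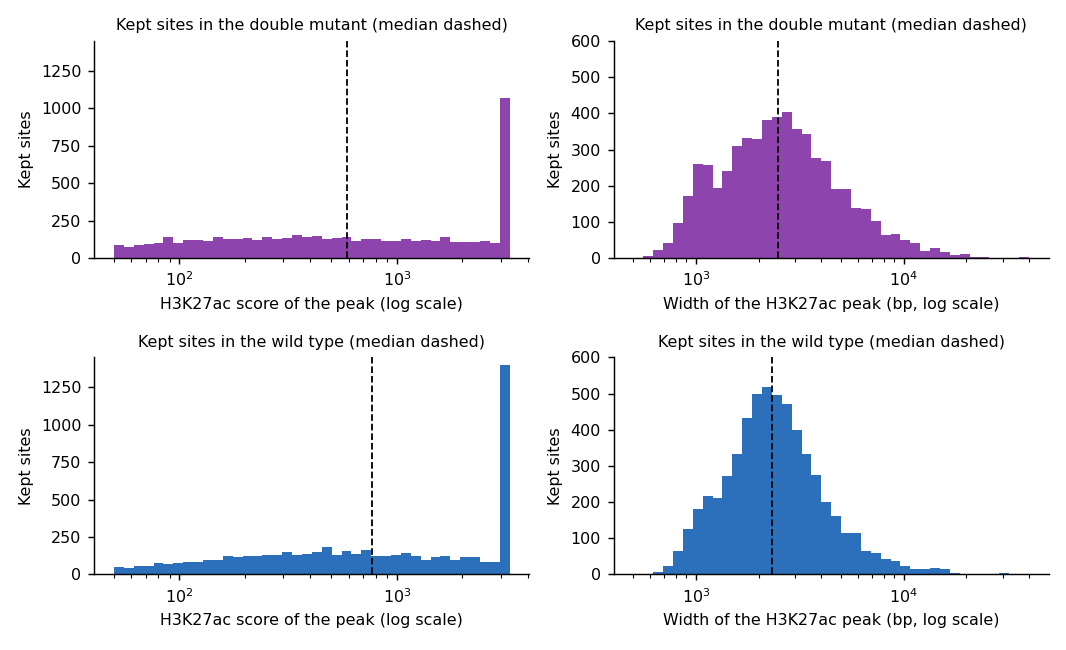
Histograms of the authors' H3K27ac score (left) and the width in bp (right) of the peak at each of the 5751 kept sites, for the double mutant above and wild type below, on log axes with the median as a dashed line. The median score was 590 in the double mutant and 765 in wild type, the median width 2477 and 2310 bp, and the bar at the right end of each score panel includes the 1035 double-mutant and 1355 wild-type sites at 3100 or more.

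The acetylated peaks had a larger median width than the bound sites, though many did not cover the site in full. Their median width at kept sites was 2477 bp in the double mutant (quartiles 1580 and 3839 bp) and 2310 bp in wild type (quartiles 1668 and 3288 bp). The double-mutant peak was the wider at 3441 kept sites, or 59.8% (58.6 to 61.1%). Among autosomal wild-type peaks without H3K27me3 and with a double-mutant peak on them, this held for 59.96% of the 5450 peaks that hold a kept site (58.7 to 61.3%) and for 72.1% of the 14208 peaks without any HOX13 peak (71.4 to 72.8%). Peaks with a kept site were also wider in wild type, with a median of 2208 bp against 1639 bp for peaks without HOX13, and had a higher median wild-type score, 676 against 435. Peaks with and without a kept site were not matched on width or score.

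Double-mutant H3K27ac left more of the bound sequence uncovered than wild-type H3K27ac did, although a double-mutant peak was present at every kept site by definition. The site was covered in full at 3232 kept sites in the double mutant, or 56.2% (54.9 to 57.5%), and at 3483 in wild type, or 60.6% (59.3 to 61.8%). Less than 50% of the site was covered at 496 kept sites in the double mutant (8.62%, 7.93 to 9.38%) and at 258 in wild type (4.49%, 3.98 to 5.05%). The midpoint lay in peaks of both genotypes at 5172 kept sites, or 89.9% (89.1 to 90.7%). It lay in a double-mutant peak alone at 94 and in a wild-type peak alone at 337, and in neither at 148. More than 1 H3K27ac peak crossed the site, with a gap between them, at 323 kept sites in the double mutant and at 147 in wild type. No such coverage was counted at H3K27ac peaks without HOX13, and depth is unknown. These differences between genotypes come from the lists that chose the sites and are a description.

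In the double mutant, uncovered midpoints and split peaks were most frequent at kept sites where HOX13 scored highest. In the double mutant the midpoint lay outside H3K27ac at 5.48% of kept sites in the lowest quintile of HOXA13 score among all shared sites (4.24 to 7.07%), and at 12.2% in the highest (10.6 to 13.9%). In wild type the corresponding shares were 4.29% (3.20 to 5.73%) and 3.37% (2.56 to 4.42%). For HOXD13 they were 5.63% (4.29 to 7.37%) and 11.04% (9.54 to 12.7%) in the double mutant, and 4.25% (3.10 to 5.81%) and 3.30% (2.503 to 4.33%) in wild type. For both factors, the share of kept sites with their midpoint outside a double-mutant peak was thus largest in the highest quintile. Site width was not matched between quintiles. These shares come from H3K27ac calls that chose the sites, and are a description. In wild type the intervals of lowest and highest quintile overlapped. The share of the site covered was not compared by quintile. Split peaks had the same order in both genotypes: more than 1 double-mutant peak crossed 3.29% of kept sites in the lowest HOXA13 quintile (2.35 to 4.58%) and 8.45% in the highest (7.13 to 9.99%), against 1.496% (0.908 to 2.45%) and 3.64% (2.79 to 4.73%) for wild-type peaks. Shares with an H3K27ac score below 100 were read within each list. They are not compared between genotypes, because the lists differ in length and in score level. Within the double-mutant list the share was 8.57% in the lowest HOXA13 quintile (7.00 to 10.47%) and 13.3% in the highest (11.6 to 15.1%). Within the wild-type list it was 6.68% (5.29 to 8.40%) and 4.46% (3.52 to 5.65%). By HOXD13 score the double-mutant shares were close, with 11.49% in the lowest quintile (9.54 to 13.8%) and 12.1% in the highest (10.55 to 13.9%), and the wild-type shares were 9.20% (7.45 to 11.3%) and 3.70% (2.86 to 4.79%).

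The place of the kept sites within each H3K27ac list also differed with the factor scores. In the double-mutant list the median percentile of the peak was 77.1 (74.7 to 79.6) at kept sites of the lowest HOXA13 quintile and 62.0 (60.5 to 64.0) at those of the highest. In the wild-type list it was 72.3 (69.6 to 75.1) and 64.3 (63.3 to 65.8), with the lowest value, 60.4 (58.0 to 62.5), in the middle quintile. By HOXD13 quintile the double-mutant medians were 68.3 (65.7 to 71.0) and 65.9 (63.9 to 67.1), and the wild-type medians 61.4 (58.6 to 64.6) and 67.8 (65.8 to 68.9). Percentiles of lists of different length are not set against each other here. Within the wild-type list the highest HOXD13 quintile stood above the lowest, and within the double-mutant list their intervals overlapped.

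The 4 kept sites with the best sum of HOXA13 and HOXD13 ranks give examples of single regions. The first, on chromosome 10 at 29444036 to 29447493, had a HOXA13 score of 3203 and a HOXD13 score of 3190. Its double-mutant H3K27ac peak was 1625 bp wide with a score of 219, and its wild-type peak was 3660 bp wide with a score of 2886. The double-mutant peak, from 29446010 to 29447634, covered the right-hand part of the site, while the wild-type peak, from 29444030 to 29447689, covered all of it.

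The next, on chromosome 1 at 38698511 to 38700557, had factor scores of 3174 for HOXA13 and 3181 for HOXD13, with H3K27ac scores of 252 in the double mutant and 383 in wild type. On chromosome 3 at 80848813 to 80852534 (HOXA13 score 3100, HOXD13 score 3197), H3K27ac scored 101 in the double mutant, in a peak of 918 bp, and 1182 in wild type, in a peak of 3058 bp. On chromosome 5 at 99797271 to 99799777 (HOXA13 score 3187, HOXD13 score 3100), it scored 87.3 in the double mutant and 431 in wild type. At 3 of these 4 sites the double-mutant peak was narrower than the wild-type peak, and at chromosome 1 it was wider, 2557 bp against 1892 bp. As percentiles of the double-mutant list, the H3K27ac scores of the 4 sites were 47.5, 50.6, 25.85 and 20.7, in the order given. As percentiles of the wild-type list they were 84.4, 52.2, 70.8 and 54.15. None of the 4 overlapped H3K27me3 of the double mutant or of E10.5 limb buds.

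At the other end stood sites within long acetylated stretches. The kept site in the widest wild-type H3K27ac peak was on chromosome 7 at 149733318 to 149735418, with a HOXA13 score of 2620 and a HOXD13 score of 2115. Its H3K27ac peak was 36725 bp wide in the double mutant and 30683 bp in wild type, both with the score 3100. The next widest were on chromosome 11 at 120101175 to 120103537, with peaks of 22253 bp in the double mutant and 17766 bp in wild type, and on chromosome 13 at 23666548 to 23669907, with 9644 bp in the double mutant and 16893 bp in wild type. These peaks also scored 3100 in both genotypes.

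Few kept sites shared an acetylated peak. The 5751 sites lay in 5776 distinct double-mutant and 5637 distinct wild-type H3K27ac peaks. Another kept site lay in the same peak for 574 of them in the double mutant (9.98%, 9.23 to 10.8%) and for 492 in wild type (8.56%, 7.86 to 9.31%). The wild-type peak with most kept sites was on chromosome 15 at 27705678 to 27720802. It held 5, with HOXA13 scores from 53.2 to 808, and a single double-mutant peak covered all of it. A peak on chromosome 14 at 27878004 to 27890242 held 4 and was likewise covered in full. The widest peak, on chromosome 7, held 3, and double-mutant peaks covered 99.5% of it. In 20 wild-type peaks a kept site and a lost site lay side by side.

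Double-mutant H3K27ac reached into 15 kept sites by less than 100 bp. The smallest overlaps were 4 bp on chromosome 13 at 52900783 to 52901834 and 5 bp on chromosome 19 at 55743144 to 55744403. Just outside were a lost site on chromosome 4 at 15361783 to 15363315, which touched a double-mutant peak without sharing a base, and another on chromosome 17 at 9182027 to 9182861, with a gap of 1 bp. Such cases were rare, since 110 of the 1797 lost sites had a double-mutant H3K27ac peak within 1000 bp, and the median gap was 21.8 kb.

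HOX13 scores were not part of the rule beyond the presence of a peak. All classes with a wild-type mark, kept sites among them, were more frequent in the highest score quintile than in the lowest. Kept sites made up 25.9% of shared sites in the lowest HOXA13 quintile (24.6 to 27.3%), with scores up to 100.5, and 37.6% in the highest (36.1 to 39.1%), with scores from 490.5 upward. Lost sites made up 5.40% (4.73 to 6.16%) and 14.6% (13.5 to 15.7%). Sites with both marks in wild type made up 3.59% (3.05 to 4.22%) and 8.19% (7.37 to 9.10%). Sites with H3K27me3 alone made up 5.92% (5.22 to 6.70%) and 9.97% (9.07 to 10.96%). Sites with neither mark and no double-mutant H3K27ac took the opposite course, with 56.4% (54.8 to 58.0%) and 27.6% (26.3 to 29.1%). For HOXD13 the share of kept sites was 22.5% in the lowest quintile (21.2 to 23.8%) and 38.4% in the highest (36.9 to 39.9%). The highest quintile minus the lowest was 11.7 percentage points for HOXA13 (9.64 to 13.8) and 15.9 for HOXD13 (13.9 to 17.9). Where both scores were in the highest quintile, 39.1% of 2956 sites were kept (37.4 to 40.9%), and where both were in the lowest, 22.7% of 1879 (20.9 to 24.7%).

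**Figure D2:**
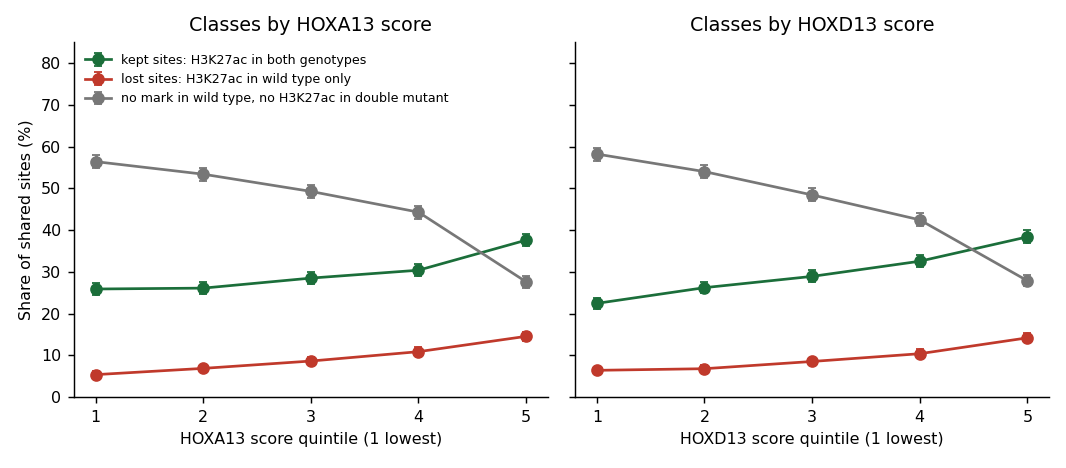
Share of autosomal shared sites (y axis, %) that were kept, lost or without marks, by quintile of HOXA13 score (left) and HOXD13 score (right), with Wilson 95% intervals as bars. Kept sites made up 25.9% in the lowest and 37.6% in the highest HOXA13 quintile, and 22.5% and 38.4% by HOXD13 score, while unmarked sites made up 56.4% and 27.6% by HOXA13 score.

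Among sites that were acetylated in wild type, the highest quintile of either factor had a smaller kept share than the lowest. Kept sites were 82.8% of sites with wild-type H3K27ac and no H3K27me3 in the lowest HOXA13 quintile (80.5 to 84.8%). The next quintiles had 79.1%, 76.7% and 73.6%, and the highest had 72.1% (70.1 to 74.0%). The difference between highest and lowest was -10.7 points (-13.5 to -7.74). For HOXD13 the shares were 77.7% (75.2 to 80.1%) in the lowest quintile, 79.4% in the next and 73.0% (71.0 to 74.9%) in the highest, a difference of -4.76 points (-7.82 to -1.61), which was -8.88 when peaks scoring below 100 were left out. Kept sites also scored lower than lost sites as a class: their median HOXA13 score was 233 against 303 for lost sites, and their median HOXD13 score 194 against 226.

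Kept calls were most frequent at high wild-type H3K27ac scores, so the shares were also read within bins of that score. Over the 7548 sites, 37.5% were kept in the lowest quintile of this score (35.1 to 39.95%), 61.7% in the next (59.2 to 64.1%), 85.9% in the middle one (84.05 to 87.6%), 96.3% in the fourth (95.2 to 97.1%) and 99.6% in the highest (99.1 to 99.8%). Within the 4 lower bins, sites of the highest HOXA13 quintile were kept less often than sites of the lowest. In the second bin 72.6% of sites of the lowest HOXA13 quintile were kept (65.7 to 78.6%) and 53.1% of sites of the highest (48.2 to 57.9%), a difference of -19.6 points (-27.3 to -11.1). In the other 3 of these bins the difference was -12.2, -11.6 and -4.13 points, from the lowest upward. For HOXD13 the differences in the 4 lower bins were -14.0, -23.2, -9.23 and -4.01 points. In the highest bin nearly every site was kept, and the differences were -0.390 points for HOXA13 and -0.350 for HOXD13. These differences come from the H3K27ac contrast that chose the sites and are a description.

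**Figure D3:**
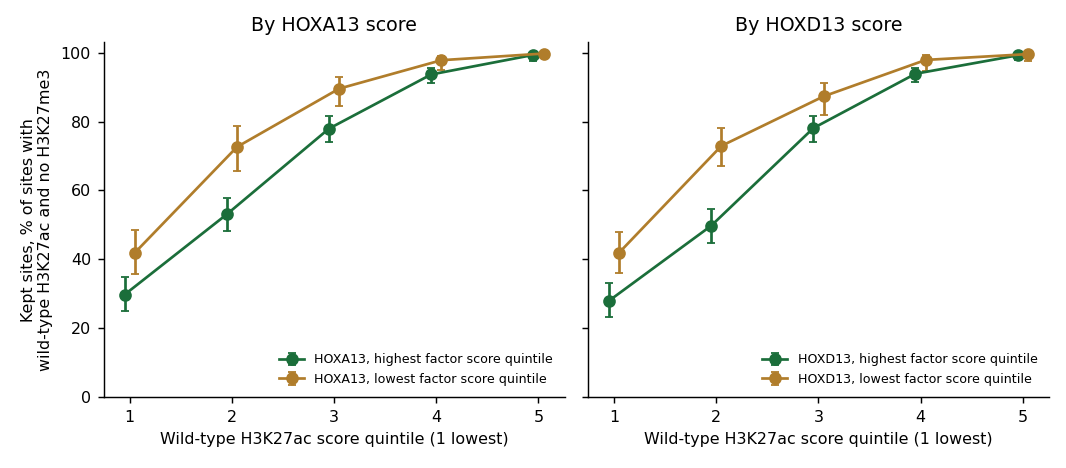
Kept sites as a share (y axis, %) of sites with wild-type H3K27ac and no H3K27me3, by quintile of the wild-type H3K27ac score (x axis), for the lowest and the highest quintile of HOXA13 score (left) and HOXD13 score (right), with Wilson 95% intervals. In the second bin the shares were 72.6% for the lowest and 53.1% for the highest HOXA13 quintile, and the lines meet near 100% in the highest bin.

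Bound peaks were also set beside unbound ones. For this, wild-type H3K27ac peaks were divided at the score quintiles of the autosomal peaks without H3K27me3 that hold a shared site. In the lowest bin 35.5% of those peaks overlapped double-mutant H3K27ac (33.1 to 38.0%), against 65.4% of peaks without any HOX13 peak (64.0 to 66.8%). In the next bins the shares were 59.1% against 86.0%, 83.6% against 97.3% and 95.8% against 99.8%. In the highest bin 1470 of 1472 peaks with a shared site and all 3410 peaks without HOX13 were kept. Shared sites in peaks of the highest scores were thus kept almost without exception. The gap to unbound peaks was widest in the lowest bins, and shares near 100% leave little room for a gap. Peak width was not matched. These shares come from the H3K27ac contrast that chose the sites and are a description.

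The double-mutant H3K27me3 list was not part of the rule, though wild-type H3K27me3 was, and its peaks were nearly absent from kept sites. A double-mutant H3K27me3 peak overlapped 48 of the 5751 kept sites, or 0.835% (0.630 to 1.11%). Over all autosomal shared sites without wild-type H3K27me3 the share was 0.970%, and over all autosomal shared sites 9.00%. Lost sites had it in 34 of 1797 cases, or 1.89% (1.36 to 2.63%), so kept sites differed from lost sites by -1.06 points (-1.83 to -0.458). Of sites with both marks in wild type, 74.0% had it (71.1 to 76.7%). Kept sites thus lay close to the level of all sites without wild-type H3K27me3, and below lost sites. Kept and lost sites are split by double-mutant H3K27ac, which cannot share a lysine with H3K27me3. The lower share at kept sites can therefore follow from the rule, and this difference is a description.

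Most of these overlaps were partial. At 8 of the 48 kept sites double-mutant H3K27me3 covered 50% or more of the site, and 22 of the 48 had a wild-type H3K27me3 peak within 1000 bp. Such coverage was found at 0.139% of all kept sites (0.0705 to 0.274%). Among lost sites it was found at 9, or 0.501% (0.264 to 0.949%), and the intervals overlapped. In the following, the 48 kept sites are described. Their H3K27me3 scores had a median of 96.8. The kept site with the highest double-mutant H3K27me3 score, 3100, was on chromosome 18 at 25739294 to 25740471 and was covered in full. It had low factor scores of 98.5 for HOXA13 and 108 for HOXD13, and H3K27ac scores of 88.8 in the double mutant and 276 in wild type. At the next, on chromosome 2 at 165391861 to 165393494, the peak of score 2994 covered 0.184% of the site. At the last, on chromosome 12 at 54724232 to 54726503, the H3K27me3 peak of score 991 covered 3.26% of the site. There HOXA13 and HOXD13 both scored 3100, and H3K27ac scored 57.7 in the double mutant and 1070 in wild type.

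H3K27me3 of the E10.5 forelimb was found at 108 kept sites, or 1.88% (1.56 to 2.26%). Over all autosomal shared sites without E11.5 wild-type H3K27me3 the share was 1.19%, and over all autosomal shared sites 6.50%. Sites with no mark in wild type but H3K27ac in the double mutant had an E10.5 peak in 13 of 615 cases, or 2.11% (1.24 to 3.58%). The higher share is thus not particular to kept sites. Lost sites had such a peak in 15 cases, or 0.835% (0.507 to 1.37%), which makes kept sites higher by 1.04 points (0.417 to 1.55). With overlap of at least 50% of either feature, the share of kept sites was 0.668% and the difference 0.26 points, with an interval that included 0 (-0.170 to 0.581). When peaks scoring below 100 were left out, the difference was 0.536 points, again with 0 inside its interval (-0.223 to 1.11). E10.5 H3K27me3 covered 50% or more of the site at 25 kept sites, 0.435% of them (0.295 to 0.641%), and at 4 lost sites, 0.223% (0.0866 to 0.571%), with overlapping intervals. Of the 108 kept sites with E10.5 H3K27me3, 35 had an E11.5 wild-type H3K27me3 peak within 1000 bp. Both lists, double mutant and E10.5, overlapped 9 kept sites. The E10.5 library differs from those of E11.5 in stage, strain, labelled part of the limb and antibody at once, and these cannot be told apart.

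Kept sites had kept neighbours more often than lost sites did. For each shared site the nearest other shared site by midpoint was found, passing over sites that lie in the same H3K27ac peak of either genotype or wild-type H3K27me3 peak. The median distance was 22.2 kb for kept sites and 22.3 kb for lost sites. The neighbour was itself kept for 46.6% of kept sites (45.3 to 47.9%) and for 29.7% of lost sites (27.6 to 31.8%). Counting neighbours that were acetylated in wild type without H3K27me3, 83.6% were kept beside kept sites (2681 of 3207, 82.3 to 84.8%) and 67.55% beside lost sites (533 of 789, 64.2 to 70.7%). The difference was 16.0 points (12.6 to 19.6), and 24.8 points when mark peaks within 1000 bp of a site counted as overlapping. Neighbours are pairs of sites within the same libraries and many pairs are counted from both ends, so the interval is too narrow. Sites and neighbours were not matched on wild-type H3K27ac score, with which the kept share rose. The calls are those that chose the sites, so the difference is a description.

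The gap between neighbours of kept and of lost sites was widest among the close pairs, again without matching on wild-type H3K27ac score. Up to 5 kb apart, the kept share of acetylated neighbours was 78.4% beside kept sites (73.5 to 82.6%) and 52.8% beside lost sites (44.1 to 61.3%). At 5 to 10 kb it was 86.8% beside kept sites (83.9 to 89.3%) and 60.4% beside lost sites (52.0 to 68.3%). At 10 to 20 kb it was 88.9% (86.3 to 91.0%) and 70.1% (61.6 to 77.4%). Beyond 100 kb the shares were 78.7% beside kept sites (73.9 to 82.9%) and 76.5% beside lost sites (66.3 to 84.4%), and their intervals overlapped.

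**Figure D4:**
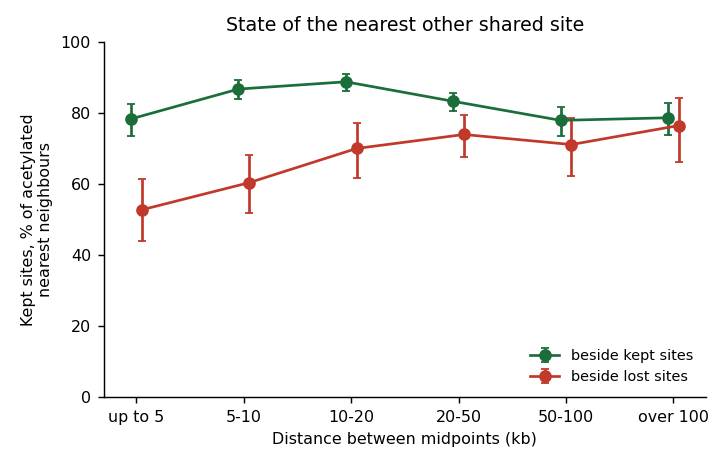
Share of acetylated nearest neighbours that were kept (y axis, %), by distance between midpoints in kb (x axis), beside kept sites and beside lost sites, with Wilson 95% intervals. At 5 to 10 kb the shares were 86.8% beside kept and 60.4% beside lost sites, and beyond 100 kb 78.7 and 76.5%.

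Kept sites were spread over the genome, with some chromosomes richer in them. They occurred in 1544 of the 2222 windows of 1 Mb that held a shared site, and 428 of these windows held exactly 1. Their share of shared sites ran from 25.04% on chromosome 8 (22.6 to 27.6%) to 37.8% on chromosome 7 (34.7 to 41.1%). As a share of sites with wild-type H3K27ac and no H3K27me3 they ran from 67.7% on chromosome 15 (62.2 to 72.7%) to 85.3% on chromosome 17 (80.4 to 89.2%). At least 10 kept sites were found in 90 windows, which together held 1164. The fullest windows were chosen for their counts. The window from 52 to 53 Mb of chromosome 6 had 26 kept sites, beside 4 lost sites and 25 with both marks in wild type. The window from 23 to 24 Mb of chromosome 13 had 22, and these were all of its shared sites. On chromosome 18 the window from 55 to 56 Mb had 22 kept sites of 47 shared sites.

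**Figure D5:**
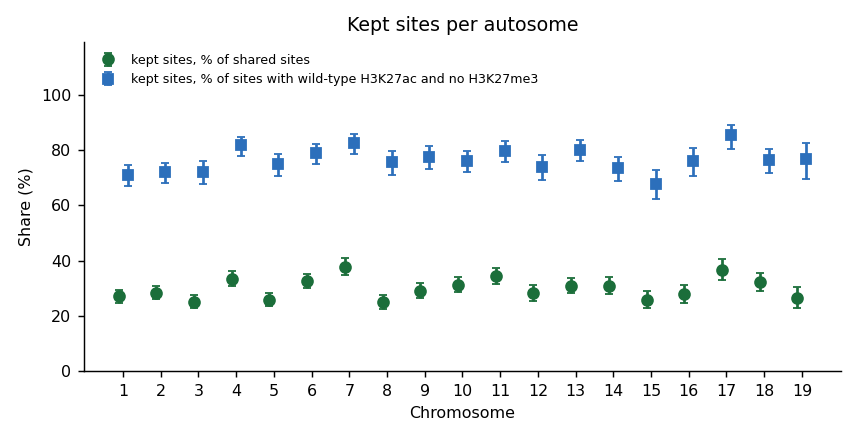
Kept sites on each autosome as a share (y axis, %) of all shared sites (circles) and of sites with wild-type H3K27ac and no H3K27me3 (squares), with Wilson 95% intervals. The first share was lowest on chromosome 8 with 25.04% and highest on chromosome 7 with 37.8%, the second lowest on chromosome 15 with 67.7% and highest on chromosome 17 with 85.3%.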

How the data were processed

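The data are peak lists of 7 ChIP-seq libraries, 1 per group, with groups taken from the sample titles. The submitters' processing notes name Bowtie 0.12.7, MACS 1.4 and the mouse build mm9. The deposited lists are named for a library and an input, so peaks were called per library. The score that the authors deposited with each peak depends on depth and on the input and was used within 1 list. Chromatin for HOXA13 was cross-linked with disuccinimidyl glutarate as well as formaldehyde, per the labels' protocols, so scores of the factors are not set against each other. Between 6 and 16 peaks per list lie beyond where chromosome 1 ends in GRCm38. The genome available was GRCm38, so no coordinates were converted and no gene or sequence was assigned to a site. The planned counts of promoters, gene lists and motifs were therefore not made.

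Peaks were merged where they shared at least 1 bp, and each site took the highest score of its peaks. Shares have Wilson 95% intervals. The sites, lists and comparisons were chosen with earlier results of these data known. The regions named are the 4 kept sites with the best sum of ranks of both factor scores, the 3 wild-type H3K27ac peaks with most kept sites, the 3 kept sites with the highest double-mutant H3K27me3 score, those in the 3 widest wild-type H3K27ac peaks, and 2 sites on each side of the H3K27ac overlap limit; windows of 1 Mb were picked after their counts were seen. Tested on simulated data, the classification gave back the class of 2000 of 2000 planted sites. Each planted site had 1 peak of each factor, and every planted mark spanned its whole site. Split peaks, partial overlaps and peaks holding several sites were not planted, so the result does not cover them. Python 3.11.15, pandas 2.3.3 and scipy 1.17.1 were used. For 15 results, 7 alternatives were run; the other values have none.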

Additional observations from a re-analysis of the deposited data

How the results depend on the processing

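The 7 alternatives were applied to 15 results, and none reversed a difference; windows around promoters and motifs were not run, since no mm9 genome was used here. No paired analysis was possible because each group has 1 library. When peaks scoring below 100 were left out of each list, the kept sites numbered 3382, the shares with double-mutant and E10.5 H3K27me3 were 0.562% and 1.30%, and kept sites made up 33.4% and 35.1% of the highest HOXA13 and HOXD13 quintiles. The kept share of acetylated sites then differed between highest and lowest quintile by -13.75 points for HOXA13 and -8.88 for HOXD13. With this setting 7.63% of kept sites shared their wild-type peak with another, 93.4% had their midpoint in peaks of both genotypes, and the median wild-type peak width was 2576 bp. With overlap of at least 50% of either feature, the E10.5 share was 0.668%, the difference in it from lost sites 0.26 points (0.536 when peaks below 100 were left out, both with 0 inside the interval), the share with another site in the peak 7.83% and the midpoint share 94.7%. With H3K27ac lists of equal length, 31933 peaks each, the kept share was 34.7% in the highest HOXA13 quintile, and 21.05% and 35.6% in the lowest and highest HOXD13 quintiles. The midpoint share was then 91.6%, the width 2402 bp and the neighbour difference 19.8 points. Joining peaks closer than 1000 bp gave 11.9% with another site in the peak, a midpoint share of 91.1% and a width of 2501 bp. Counting marks within 1000 bp as overlapping gave a midpoint share of 96.7% and a neighbour difference of 24.8 points. Unmerged HOXA13 peaks as sites gave 11.8% with another site in the peak. The cause was not tested. In all, 79 of the alternative values stayed within the interval of the value reported, or within 1.5 times a count, and 26 did not. The 5 differences of shares were added after seeing the data. Depth is unknown from the lists, so how far it limits a call cannot be given.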

Other observations

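The X chromosome was outside the definition. It held 220 sites with peaks of both factors, of which 18 met the rest of the rule for kept sites. Another 14 had wild-type H3K27ac that was not called in the double mutant, 52 had both marks in wild type, 56 had H3K27me3 alone and 80 had no mark in wild type and no double-mutant H3K27ac. The wild-type H3K27me3 list held 28875 peaks, of which 19624 were autosomal. The double-mutant list held 19358, of which 18973 were autosomal, and the E10.5 list 17556, of which 15077 were. Wild type thus had many more H3K27me3 peaks on the sex chromosomes than the double mutant. Whether the embryos of both genotypes were of the same sex was not tested.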
